A study of Mus musculus with 12 samples.

Results

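The Ifitm genes examined here were Ifitm1, Ifitm2, Ifitm3 and Ifitm6, found by matching the Ensembl identifiers of the count files to these 4 mouse symbols, 4 of 55335 identifiers in each library. Neutrophils had been isolated from 3 groups of 4 mice of the FVB strain, all 10 weeks old, with 1 RNA-seq library per mouse. PyMT TANs are tumor-associated neutrophils of mammary tumors from mice that carry the polyoma middle T transgene, which drives tumor growth in the mammary epithelium. PyMT-Cxcr2-/- TANs come from tumors of mice with the same transgene that lack the chemokine receptor Cxcr2 in every tissue, so host and tumor cells lack it too. WT BM neutrophils come from the bone marrow (BM) of mice without the transgene, so tumor and marrow differ in genotype as well as in tissue. All cells were enriched on CD11b and sorted as CD45+ CD11b+ Ly6G+ F4/80-. The study set these groups side by side to ask how neutrophils in the tumor differ from those of the marrow and what the loss of Cxcr2 alters. The 4 genes were selected on their CPM levels in these 3 groups and the differences between them, so their levels and fold changes are a description, with no p-value. How many of them passed the thresholds used for all genes is given beside the share of all genes that did, and p-values are given only for genes other than these 4.

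Ifitm proteins are small proteins of the plasma membrane and of endosomes that hinder the fusion of enveloped viruses with the cell. Ifitm1, Ifitm2 and Ifitm3 are induced by type I and type II interferon through Jak kinases and the transcription factors they activate. Ifitm1 resides largely at the cell surface, while Ifitm2 and Ifitm3 act mostly on endosomes. Ifitm6 is a further member of the mouse family that has been described in myeloid cells.

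The 4 genes lie together on chromosome 7 of the mm10 build, within 63.1 kb by the GENCODE M21 annotation. Ifitm2 (ENSMUSG00000060591.9) spans 140954837 to 140955987 on the minus strand, with 2 exons and 655 exonic bases. Ifitm1 (ENSMUSG00000025491.14) spans 140967221 to 140969825 and is the member on the plus strand, with 3 exons and 1094 exonic bases. Ifitm3 (ENSMUSG00000025492.6) spans 141009586 to 141010770 on the minus strand, with 2 exons and 678 exonic bases. Ifitm6 (ENSMUSG00000059108.4) spans 141015699 to 141017924 on the minus strand, with 3 exons and 905 exonic bases. Between pairs of members the longest transcripts were identical at 67.2% to 76.9% of aligned bases, with the highest value between Ifitm2 and Ifitm3. No stretch of 100 bases of Ifitm1, Ifitm3 or Ifitm6 occurs in the transcripts of another gene. Ifitm2 is different, because 169 of its 556 stretches also occur in the readthrough gene Gm45717, 25 in Gm8865 and 1 in Gm11951. Gm45717 held 0 counts in the 12 libraries and covers 268 bases of Ifitm2 on the same strand, so reads there could belong to both genes and the Ifitm2 level is uncertain.

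The promoters are printed because the members sit next to each other and yet differed in level between the groups. Each line gives the 250 bases before a RefSeq transcription start on the GRCm38.p6 build, read on the strand of the gene, and capitals mark a match to a motif searched on both strands. The 4 motifs were the interferon-stimulated response element (ISRE) as GAAA, 2 free bases and GAAA again, the gamma-activated site (GAS) as TTCNNNGAA, the C/EBP motif as TTGCNNAA and the PU.1 motif as GAGGAAGT, and the last 2 name factors of myeloid cells. The windows are chr7:140967826-140968075 on the plus strand for Ifitm1, and on the minus strand chr7:140955962-140956211 for Ifitm2, chr7:141010745-141010994 for Ifitm3 and chr7:141016893-141017142 for Ifitm6.
Ifitm1: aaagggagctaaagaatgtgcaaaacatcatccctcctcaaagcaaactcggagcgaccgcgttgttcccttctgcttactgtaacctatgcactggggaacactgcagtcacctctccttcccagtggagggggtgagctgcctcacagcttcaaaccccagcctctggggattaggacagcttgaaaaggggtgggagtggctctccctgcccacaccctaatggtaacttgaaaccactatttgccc
Ifitm2: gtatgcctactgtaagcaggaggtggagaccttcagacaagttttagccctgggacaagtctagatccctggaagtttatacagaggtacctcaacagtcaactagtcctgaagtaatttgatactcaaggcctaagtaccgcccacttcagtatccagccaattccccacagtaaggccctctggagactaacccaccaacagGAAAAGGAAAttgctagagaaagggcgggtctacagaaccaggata
Ifitm3: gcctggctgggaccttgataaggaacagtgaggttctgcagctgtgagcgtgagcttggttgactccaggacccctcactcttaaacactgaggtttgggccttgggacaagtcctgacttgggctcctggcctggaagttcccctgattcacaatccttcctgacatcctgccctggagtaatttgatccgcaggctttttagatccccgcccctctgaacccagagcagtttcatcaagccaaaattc
Ifitm6: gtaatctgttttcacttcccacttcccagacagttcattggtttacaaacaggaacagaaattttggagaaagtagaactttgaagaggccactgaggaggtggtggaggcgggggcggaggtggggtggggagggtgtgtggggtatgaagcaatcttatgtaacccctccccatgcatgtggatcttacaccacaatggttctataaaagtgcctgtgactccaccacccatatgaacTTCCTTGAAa

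The Ifitm2 window held an ISRE match, GAAAAGGAAA, that begins at base -46, where -1 is the base just before the start. The Ifitm6 window held a GAS match, TTCCTTGAA, that begins at base -10. The windows of Ifitm1 and Ifitm3 held none of the 4 motifs in these letters. The Ifitm1 and Ifitm6 windows lie inside the annotated spans of their genes, which have 3 transcripts each. The bases before the outermost annotated start of these genes were not searched, so the statements on them hold for an internal start. Of 32851 promoter windows of this length, 2.98% held the ISRE letters, 7.02% the GAS letters, 9.56% the C/EBP letters and 2.44% the PU.1 letters. A match describes the letters of the window, and binding was not measured in these libraries.

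Libraries held between 25032704 and 51351569 counts on genes, and a level of 3 counts was 0.0584 to 0.12 CPM (counts scaled to the size of the library), which covers counting error only. The lowest Ifitm count in any library was 2669, for Ifitm3, so counting error was small beside the differences between mice. Cxcr2, the deleted gene, was at 9.48 ± 0.532 CPM (SD, n = 4) in PyMT-Cxcr2-/- TANs, against 1186 ± 237.5 in PyMT TANs and 2035 ± 199.6 in WT BM neutrophils, as the labels state. The summed level of 10 neutrophil markers, among them Ly6g, S100a8 and Csf3r, reached 79549 to 107366 CPM in WT BM neutrophils, against 10733 to 17305 CPM in PyMT TANs and, with Cxcr2 deleted, 18893 to 31245 CPM, so every group expressed them and the 3 ranges did not overlap. The summed level of 10 macrophage markers was 214.0 to 310.3 CPM in the marrow, 2194 to 5158 CPM in PyMT TANs and 2390 to 4987 CPM in those without Cxcr2. The summed level of 10 mammary epithelial markers was at most 0.514 CPM in WT BM neutrophils, and it was 49.3 to 457.5 CPM and 86.1 to 327.3 CPM in PyMT TANs with and without Cxcr2. In the marrow 6 of the 10, keratin and casein genes, had 3 counts or fewer in each library. In such bulk samples, fewer cells of a type and less RNA per cell cannot be told apart, and what share other cells had in the Ifitm levels was not tested.

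Ifitm1, the member of the cell surface, was the Ifitm gene with the highest counts in both TAN groups. The 4 PyMT TAN libraries held 1266, 833.0, 794.3 and 858.1 CPM, with a mean of 937.9 ± 220.4 (SD, n = 4). The PyMT-Cxcr2-/- TAN libraries held 1176, 1035, 1097 and 1270 CPM, with a mean of 1145 ± 101.5. The WT BM libraries held 225.4, 177.0, 149.5 and 176.5 CPM, with a mean of 182.1 ± 31.6. Every TAN library thus lay above every BM library, while the TAN groups overlapped because 1 PyMT TAN mouse lay within the range of the PyMT-Cxcr2-/- mice. Per kb of exon, Ifitm1 was the gene of rank 26 among all genes in PyMT TANs and of rank 23 in PyMT-Cxcr2-/- TANs, and of rank 271 in WT BM neutrophils.

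Ifitm6, the member described in myeloid cells, was highest in the marrow and lowest in PyMT TANs. The WT BM libraries held 1263, 1054, 952.8 and 1231 CPM, with a mean of 1125 ± 147.1 (SD, n = 4). The PyMT-Cxcr2-/- TAN libraries held 317.9, 350.1, 310.8 and 613.7 CPM, with a mean of 398.1 ± 144.8. The PyMT TAN libraries held 121.0, 85.5, 119.7 and 82.9 CPM, with a mean of 102.3 ± 20.9. No range of one group overlapped that of another, and the lowest PyMT-Cxcr2-/- mouse was above the highest PyMT mouse and the highest PyMT-Cxcr2-/- mouse below the lowest BM mouse. Its rank per kb was 27 in WT BM neutrophils, 67 in PyMT-Cxcr2-/- TANs and 286 in PyMT TANs.

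Ifitm3, the endosomal member best known for blocking influenza virus, followed the order of Ifitm6 over a smaller range. It was at 276.8, 232.7, 194.3 and 273.5 CPM in the WT BM libraries, 141.7, 145.8, 149.9 and 204.3 CPM in the PyMT-Cxcr2-/- TAN libraries, and 100.5, 70.3, 116.3 and 90.5 CPM in the PyMT TAN libraries. The means were 244.3 ± 38.9, 160.4 ± 29.4 and 94.4 ± 19.2 CPM (SD, n = 4). The TAN groups did not overlap, and the highest PyMT-Cxcr2-/- mouse lay within the range of the BM mice.

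Ifitm2, whose product also acts on endosomes, varied least. It was at 115.4, 89.0, 104.2 and 99.0 CPM in the 4 PyMT TAN libraries, and at 128.8, 119.8, 131.4 and 158.9 CPM in the PyMT-Cxcr2-/- TAN libraries. In WT BM neutrophils it was at 132.2, 90.9, 85.1 and 119.2 CPM. The means were 101.9 ± 11.0, 134.7 ± 16.9 and 106.8 ± 22.5 CPM (SD, n = 4). The 4 PyMT-Cxcr2-/- mice were above the 4 PyMT mice, and the BM mice overlapped both TAN groups.

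**Figure D1:**
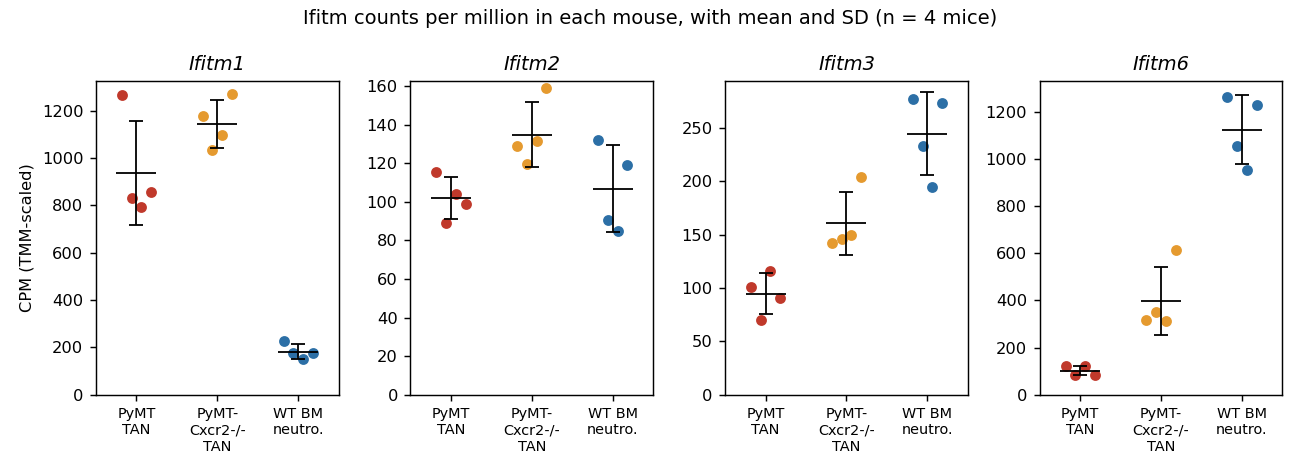
TMM-scaled CPM of Ifitm1, Ifitm2, Ifitm3 and Ifitm6 (y axis, from 0, a scale per gene) in each of the 12 mice, by group (x axis), where a point is a mouse and the black line and bars are the mean and SD of 4 mice. Ifitm1 was at 149.5 to 225.4 CPM in WT BM neutrophils and at 794.3 CPM or more in every TAN library, whereas Ifitm6 was at 952.8 CPM or more in WT BM neutrophils and at 121.0 CPM or less in PyMT TANs.

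Within a library, the ratio between members does not depend on the factor by which the library is scaled. The ratio of Ifitm1 to Ifitm6, both as CPM per kb, was 0.119 to 0.148 in WT BM neutrophils, 5.49 to 8.66 in PyMT TANs and, between these, 1.71 to 3.06 in PyMT-Cxcr2-/- TANs, 3 ranges that do not overlap. As a share of the summed CPM per kb of the 4 genes, Ifitm1 made up 67.4% ± 4.56 (SD, n = 4), 54.7% ± 4.31 and 8.61% ± 0.715 in PyMT TANs, PyMT-Cxcr2-/- TANs and the marrow. Ifitm6 made up 8.98% ± 1.46, 22.3% ± 4.32 and 64.4% ± 1.011. Ifitm3 made up 11.1% ± 2.42, 12.2% ± 0.565 and 18.6% ± 0.588, and Ifitm2 12.4% ± 1.09, 10.7% ± 0.484 and 8.38% ± 0.635. The leading member was therefore Ifitm6 in each of the 4 BM libraries and Ifitm1 in every TAN library.

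The order of the members per kb was Ifitm1, Ifitm6, Ifitm3 and Ifitm2 in 4 of 4 PyMT-Cxcr2-/- TAN libraries. In PyMT TANs Ifitm6 came last in 4 of 4, and Ifitm2 and Ifitm3, at 155.6 ± 16.8 and 139.2 ± 28.4 CPM per kb, did not differ beyond their spread. In WT BM neutrophils Ifitm6 came before Ifitm3 in 4 of 4, and Ifitm1 and Ifitm2, at 166.4 ± 28.9 and 163.1 ± 34.4 CPM per kb, did not differ beyond their spread. The Ifitm2 level was also divided by its 387 bases that Gm45717 does not cover, which is right only if no read on the shared bases was counted. Ifitm2 would then be at 276.1 ± 58.2 CPM per kb in WT BM neutrophils, 348.1 ± 43.6 in PyMT-Cxcr2-/- TANs and 263.3 ± 28.4 in PyMT TANs. That would place it above Ifitm3 in both TAN groups and above Ifitm1 in the marrow, so its place in the order is uncertain. The summed level of the 4 genes differed less than their make-up did, with 1265 ± 236.8 CPM per kb in PyMT TANs, 1929 ± 305.7 in those without Cxcr2 and 1933 ± 277.0 in the marrow. The sum of PyMT-Cxcr2-/- TANs was 1731 to 2383 CPM per kb and that of PyMT TANs 1096 to 1615, without overlap, while WT BM neutrophils, at 1606 to 2211, overlapped both.

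**Figure D2:**
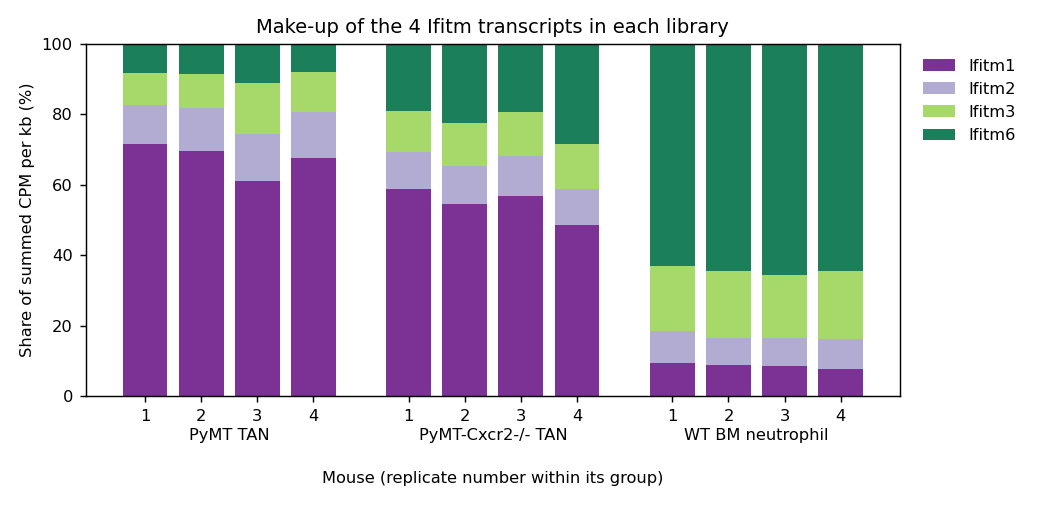
Share of each Ifitm gene in the summed CPM per kb of the 4 genes (y axis, percent, from 0) in each of the 12 libraries (x axis, mice by group), as stacked bars. Ifitm1 makes up 61.1% to 71.6% of the bar in PyMT TANs and 48.7% to 58.7% in PyMT-Cxcr2-/- TANs, whereas Ifitm6 makes up 63.1% to 65.6% in WT BM neutrophils.

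Between PyMT TANs and WT BM neutrophils, the log2 fold change from edgeR was 2.44 for Ifitm1 (standard error, SE, 0.18), a level 5.43-fold higher in PyMT TANs. It was -1.29 for Ifitm3 (SE 0.17) and -3.38 for Ifitm6 (SE 0.18), and these signs held under each of the 17 alternative settings. It was 0.01 for Ifitm2 (SE 0.16), with -0.13 to 0.46 over these settings. Ifitm1, Ifitm3 and Ifitm6 passed the thresholds used for all genes, that is, a change of 1.5-fold or more at an adjusted p under 0.05, which 53.3% of 17153 genes tested passed. 1 of the 4 was higher, where 30.1% of genes were, and 2 were lower, where 23.2% were. Ranges without overlap were seen for 3 of the 4 members, 1 higher and 2 lower, and for 58.2% of genes, 28.4% higher and 29.7% lower. These counts restate what chose the members and are read no further.

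For PyMT-Cxcr2-/- TANs against WT BM neutrophils, the log2 fold change was 2.77 for Ifitm1 (SE 0.14), 0.45 for Ifitm2 (SE 0.14), -0.49 for Ifitm3 (SE 0.14) and -1.38 for Ifitm6 (SE 0.20), each with the same sign in the 17 settings. Ifitm1 was past the thresholds and higher, as were 34.4% of 17732 genes, and Ifitm6 was past them and lower, as were 25.1%, with 59.5% of genes past them in all. The same 2 members had ranges without overlap, as did 65.8% of genes, 32.5% higher and 33.3% lower. With a correction for GC content and length the median log2 fold change of all genes moved by -0.48, and the higher share of the genes called went from 57.9% to 39.6%. Both comparisons share the 4 BM libraries, so their values stand side by side and are not independent.

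Between PyMT-Cxcr2-/- TANs and PyMT TANs, the log2 fold change was 1.93 for Ifitm6 (SE 0.24), a level 3.80-fold higher in PyMT-Cxcr2-/- TANs. It was 0.73 for Ifitm3 (SE 0.18), 0.37 for Ifitm2 (SE 0.14) and 0.26 for Ifitm1 (SE 0.16). The 4 values were positive in every one of the 17 settings. With the correction for GC content and length, however, Ifitm1 was at 0.034 and Ifitm2 at 0.027. These values are smaller than the SE given above, so the sign of Ifitm1 and Ifitm2 is uncertain. In edgeR, Ifitm6 alone passed the thresholds, which 1.98% of 18463 genes did, 1.38% higher and 0.596% lower. In DESeq2, 2 of the 4 members passed them and were higher, beside 987 of the 18463 genes, 693 higher and 294 lower. Ifitm2, Ifitm3 and Ifitm6 had ranges without overlap, as did 11.9% of genes, 6.89% higher and 5.05% lower. These counts too restate what chose the members. The median log2 fold change of all genes tested was -0.07 in this comparison and 0.09 in both comparisons with the marrow. Scaled by library totals alone, that median moved by -0.19 between the TAN groups and by 0.44 between PyMT TANs and WT BM neutrophils, and of the genes called the higher share went from 69.9% to 34.5% and from 56.4% to 72.8%. With the correction for GC content and length, these shares were 56.0% and 45.6%. Relative to the median, Ifitm6 was at 1.999 between the TAN groups, at 1.99 with library totals alone and at 1.75 with the correction. Against the marrow the correction moved the members more on this scale. Ifitm3 went from -1.38 to -0.67 in PyMT TANs and from -0.58 to -0.14 in PyMT-Cxcr2-/- TANs, and Ifitm6 from -3.47 to -2.79 and from -1.47 to -0.99.

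**Figure D3:**
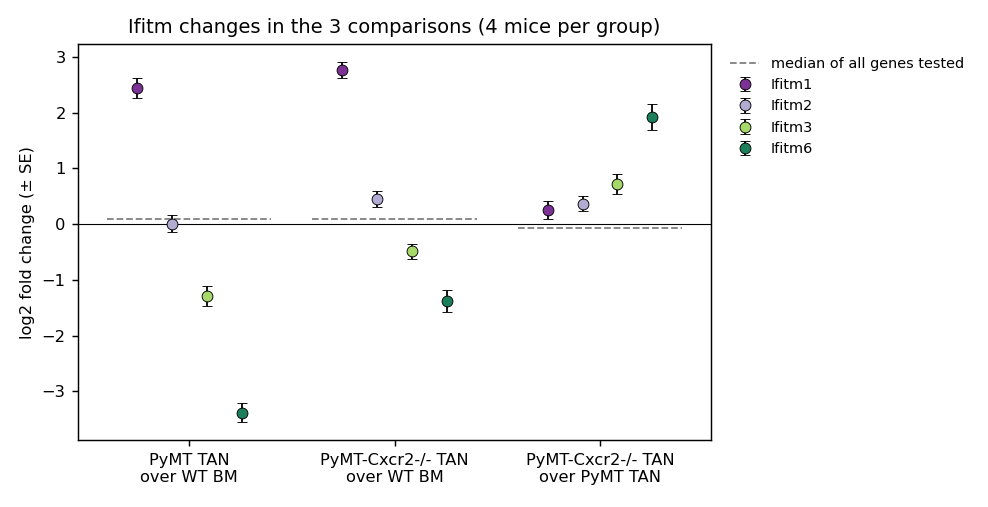
Log2 fold change (y axis, with SE bars from edgeR) of the 4 Ifitm genes in the 3 comparisons (x axis, 4 mice per group), with the median of all genes tested as a dashed line. Ifitm1 lies at 2.44 and 2.77 against WT BM neutrophils and Ifitm6 at -3.38 and -1.38, whereas between the TAN groups the 4 genes lie from 0.26 to 1.93, while Ifitm2 in the first comparison, at 0.01, changes sign with the setting.

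The summed level of the 10 neutrophil markers had the same order over the 3 groups as Ifitm6 and Ifitm3. In the marrow S100a8 and S100a9 led this sum, at 28295 and 35184 CPM, against 3497 and 2623 CPM in PyMT TANs. Csf3r did not fall in this way, with 3955 CPM in the marrow and 3736.5 CPM in PyMT TANs (log2 fold change -0.0054, edgeR adjusted p = 0.98). The 10 macrophage markers, like Ifitm1, were higher in both TAN groups than in the marrow, 10 of 10 called. In the comparison of the TAN groups, Ly6g was 1.81 higher on the log2 scale in PyMT-Cxcr2-/- TANs, Retnlg 1.71 and Lcn2 1.58, and 5 of the 10 neutrophil markers were called higher, 8 in DESeq2, and 1, Cxcr2, lower. Ly6g and Retnlg were called in 14 of 18 settings and Lcn2 in 15. The replicate block ended each of these calls (edgeR adjusted p = 0.116, 0.104 and 0.104). Replicate numbers did not pair the mice (mean correlation -0.041 for the same number), so the block cannot decide whether these calls are stable. The correction for GC content and length ended the calls of Ly6g and Retnlg (edgeR adjusted p = 0.144 and 0.214). In the same comparison 0 of 10 macrophage markers were called in edgeR, 0 had an unadjusted p under 0.05, and DESeq2 called 0. Genes of immature neutrophils, among them Elane and Mpo, summed to 186.0 to 261.6 CPM in WT BM neutrophils, 6.09 to 22.1 CPM in PyMT-Cxcr2-/- TANs and 3.23 to 11.7 CPM in PyMT TANs. Replicate 4 of the PyMT-Cxcr2-/- TANs had the highest sum of neutrophil markers of its group and the highest level of each of the 4 Ifitm genes. Replicate 1 of the PyMT TANs had the highest marker sum of its group and the highest Ifitm1, Ifitm2 and Ifitm6. Each of these mice had the lowest macrophage marker sum of its group. That sum was 2390 CPM in PyMT-Cxcr2-/- replicate 4 and 2194 CPM in PyMT replicate 1, so within the groups Ifitm1 was highest where these markers were lowest. Per 1000 CPM of the 9 neutrophil markers other than Cxcr2, Ifitm6 was at 12.01 to 12.6 CPM in WT BM neutrophils, 7.67 to 9.90 in PyMT TANs and 13.8 to 19.6 in PyMT-Cxcr2-/- TANs, so the TAN groups stayed apart while PyMT-Cxcr2-/- TANs came out above the marrow. Ifitm3 was at 2.499 to 2.79, 6.37 to 9.62 and 6.54 to 7.72 on this scale in the same order, so the TAN groups overlapped and both were above the marrow. Ifitm1 was at 1.80 to 2.14, 65.7 to 88.4 and 40.7 to 57.5, with PyMT TANs above PyMT-Cxcr2-/- TANs. Ifitm2 was at 1.09 to 1.26, 7.32 to 10.2 and 5.09 to 6.35, so on this scale PyMT TANs lay above PyMT-Cxcr2-/- TANs without overlap, the reverse of their order in CPM. This ratio was chosen after seeing the data, and 9 of the 10 markers were themselves called lower in both TAN groups than in the marrow. The part of these markers in the Ifitm levels was not tested.

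Outside the 4 members, 3 further Ifitm genes were matched and 2 could be tested. Ifitm5, whose product is known from bone mineralization, lies next to Ifitm2 and rose from 3.09 ± 0.384 CPM (SD, n = 4) in WT BM neutrophils to 7.28 ± 0.912 in PyMT TANs and 9.26 ± 0.414 in PyMT-Cxcr2-/- TANs. Its log2 fold changes against WT BM neutrophils were 1.31 (SE 0.24, edgeR adjusted p = 0.000599) and 1.70 (SE 0.17, edgeR adjusted p = 1.3e-06), and between the TAN groups 0.31 (SE 0.20, edgeR adjusted p = 0.531). Ifitm5 shares 227 bases with Gm45717, so its count is uncertain too. Ifitm10, which lies 1308 kb from the cluster, fell from 13.01 ± 1.39 CPM in WT BM neutrophils to 1.92 ± 1.18 in PyMT TANs and 2.88 ± 0.561 in PyMT-Cxcr2-/- TANs, by 2.68 and 2.05 on the log2 scale (edgeR adjusted p = 0.000575 and 4.7e-07). It overlaps Gm49369 on the same strand, which makes its count uncertain. Ifitm7, on chromosome 16, had 4 counts or fewer in each library and was not tested. Of 9 genes of the wider dispanin family, 8 were matched and 2 tested, Prrt1 and Tmem91, and in all 3 comparisons edgeR called 0 of them, with 0 at an unadjusted p under 0.05 and 0 in DESeq2, which gave no adjusted p for the 2 between the TAN groups. Without the count filter, 1 dispanin gene was called higher in PyMT-Cxcr2-/- TANs against the marrow. Ifitm4, Ifitm8 and Prrt1b were not matched.

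The genes around the cluster were followed over 200 kb on either side, 36 genes besides the members. Against WT BM neutrophils, 19 were tested in PyMT TANs and 6 were called higher and 5 lower. In PyMT-Cxcr2-/- TANs, 20 were tested and 6 were called higher and 4 lower. The shares of all genes called were 30.1% higher and 23.2% lower in PyMT TANs, and 34.4% and 25.1% in PyMT-Cxcr2-/- TANs. Scaling by library totals left 2 lower neighbours in each TAN group, and the correction for GC content and length gave 8 in PyMT-Cxcr2-/- TANs, so the balance of higher and lower neighbours depends on the scaling. Nlrp6, an inflammasome sensor, rose from 0.168 CPM to 7.78 and 5.43 CPM, Pkp3, a desmosome protein, from 0.222 to 4.15 and 4.55 CPM, and Ptdss2, a phosphatidylserine synthase, from 1.88 to 10.9 and 7.41 CPM, with log2 fold changes of 5.58 and 5.10, 4.31 and 4.47, and 2.62 and 2.09. Rnh1, the ribonuclease inhibitor, rose by 0.72 and 0.64, and Ifitm5 rose as given above. Pgghg was called higher in PyMT TANs, with a log2 fold change of 0.61, and was at 0.52 in PyMT-Cxcr2-/- TANs, under the fold threshold. Urah had 0 counts in WT BM neutrophils and was at least 5.83-fold higher in PyMT-Cxcr2-/- TANs, set against 3 counts per library. The lower genes in both were Bet1l, a Golgi SNARE protein (-1.57 and -1.55), the pseudogene Gm7514 (-1.51 and -0.91), Lrrc56 (-0.86 and -0.63) and Ric8a, a chaperone of G protein subunits (-0.72 and -0.65), and in PyMT TANs also Psmd13, a proteasome subunit (-0.60, with -0.53 in PyMT-Cxcr2-/- TANs). Bet1l, Ric8a, Urah, Psmd13 and Lrrc56 overlap neighbours in span, which makes their counts uncertain. Lrrc56 was called in 11 of 18 settings in PyMT TANs, with log2 fold changes of -1.45 to -0.42, and Ric8a in 16 of 18 in PyMT-Cxcr2-/- TANs. The median log2 fold change was 0.34 and 0.16, against 0.09 for all genes.

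Between the TAN groups, edgeR called 0 of the 21 neighbours tested, 0 had an unadjusted p under 0.05, and DESeq2 called 0 and gave no adjusted p for 7. From Ifitm5 to Ifitm6, the 6 genes tested, which are the 4 members, Ifitm5 and the pseudogene Gm7514, had positive log2 fold changes of 0.26 to 1.93, and of the 19 genes tested outside this stretch 5 did, with values of -0.92 to 0.33. The 4 members were chosen with these values known, and the edges of the stretch were not set in the plan. The difference between the stretch and its surroundings was not tested.

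**Figure D4:**
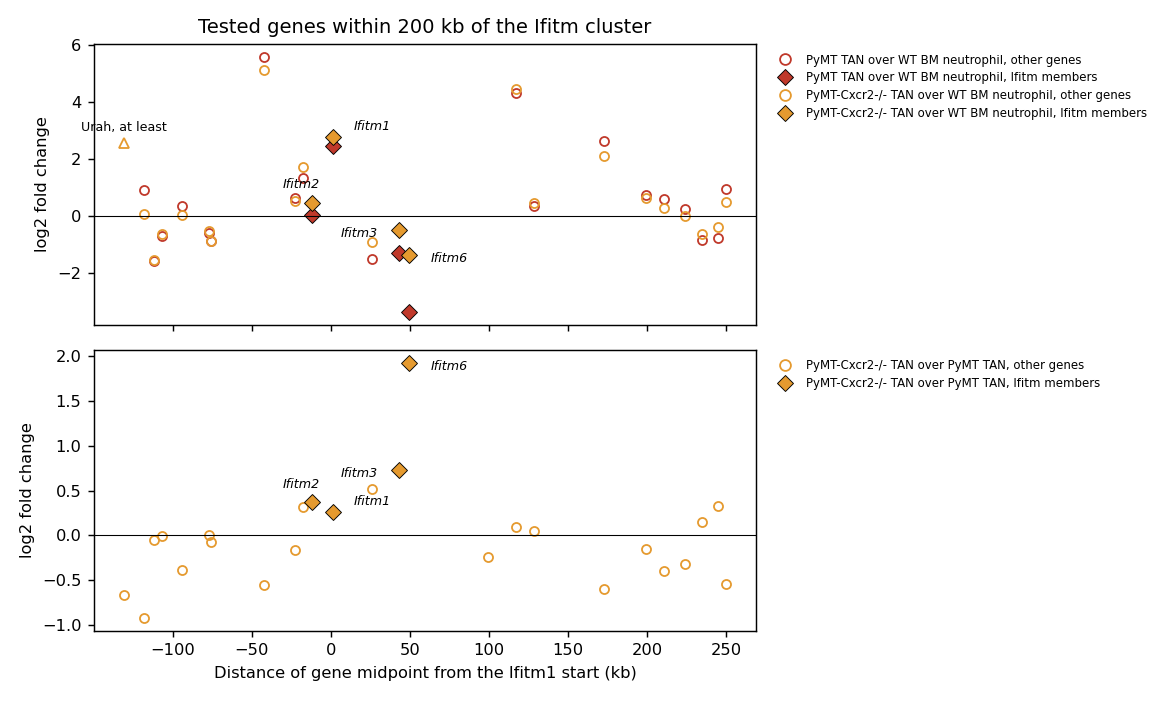
Log2 fold change (y axis) of the genes tested within 200 kb of the cluster, by distance of the gene midpoint from the Ifitm1 start (x axis, kb), against WT BM neutrophils in the upper panel and between the TAN groups in the lower one. Diamonds are the 4 Ifitm members, circles other genes and the triangle is the lower bound of Urah. Against the marrow, Ifitm1 lies at 2.44 and 2.77 and Ifitm6, in the same cluster, at -3.38 and -1.38, whereas between the TAN groups Ifitm6 lies highest, at 1.93.

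The interferon pathway was followed from ligands to targets. Of 20 interferon genes, only Ifnk, a type I interferon of epithelium, passed the count filter, with 0.772 ± 0.266 CPM (SD, n = 4) in WT BM neutrophils, 0.999 ± 0.436 in PyMT TANs and 1.21 ± 0.374 in PyMT-Cxcr2-/- TANs. In the 3 comparisons edgeR called 0 interferon genes, with 0 at an unadjusted p under 0.05 and 0 in DESeq2, which gave Ifnk no adjusted p between the TAN groups. With the correction for GC content and length, edgeR called 1 interferon gene higher in PyMT-Cxcr2-/- TANs against the marrow. The other interferon genes were too low to test at this depth.

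Of 17 receptor and signaling genes, 3 were called higher and 4 lower in PyMT TANs against WT BM neutrophils, and 4 higher and 4 lower in PyMT-Cxcr2-/- TANs. Among all genes tested, 53.3% and 59.5% were called in these comparisons. The counts of the list depend on the scaling. Library totals gave 7 higher in PyMT TANs. The correction for GC content and length gave 8 lower in each TAN group and 2 higher in PyMT-Cxcr2-/- TANs. Irf8, a factor of myeloid development and interferon responses, rose from 3.54 ± 0.680 CPM to 48.3 and 56.4 CPM (log2 fold change 3.86, SE 0.30, edgeR adjusted p = 1.2e-06, and 4.12, SE 0.25, edgeR adjusted p = 3.4e-08). Ifngr1, the ligand-binding chain of the interferon gamma receptor, rose by 0.96 and 1.24 on the log2 scale, while Ifngr2, its signaling chain, fell by 1.15 and 0.77. Ifnlr1, a chain of the interferon lambda receptor, fell by 3.11 and 2.24. Jak2, a kinase of the interferon gamma receptor, rose by 1.26 and 0.62, and Irf2, a repressor of interferon responses, fell by 1.25 and 0.72. Ifnar1, a chain of the type I receptor, rose by 0.80 in PyMT-Cxcr2-/- TANs and was at 0.41 in PyMT TANs, under the fold threshold. Its rise was called in 16 of 18 settings and was as low as 0.12 among them, with an edgeR adjusted p of 0.323 under the correction. Of the 17, Jak2 was the one called between the TAN groups, and it was lower in PyMT-Cxcr2-/- TANs (-0.72, SE 0.15, edgeR adjusted p = 0.0361) and called in 6 of 18 settings.

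Of 8 feedback inhibitors, 4 were called higher and 1 lower in each TAN group against WT BM neutrophils. Calls over all genes were 53.3% in PyMT TANs and 59.5% in PyMT-Cxcr2-/- TANs. The lower count was 0 with library totals and 2 with the correction for GC content and length in PyMT TANs, and 3 with the correction in PyMT-Cxcr2-/- TANs. Socs3, which blocks Jak kinases, rose from 141.1 ± 26.2 CPM to 1177 CPM in PyMT TANs and, in those without Cxcr2, 1605 CPM (log2 fold change 3.14, SE 0.20, edgeR adjusted p = 3.3e-07, and 3.63, SE 0.15, edgeR adjusted p = 7.9e-10). Cish rose by 2.83 and 1.71, and Usp18, which dampens the type I receptor, by 2.24 and 1.23. Ptpn6, a phosphatase of cytokine receptors, fell by 1.007 and 0.92, the former called in 17 of 18 settings. Usp18 was also the inhibitor called between the TAN groups, at 5.41 against 11.2 CPM (-1.08, SE 0.22, edgeR adjusted p = 0.0296), in 9 of 18 settings. Cish, Usp18 and Ptpn6 overlap genes on the opposite strand, and the strand setting of the counting is not given in the sources used here, so their counts are uncertain.

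Interferon-stimulated targets other than the Ifitm genes were mostly higher in TANs. Of 34 tested, 29 were called higher and 2 lower in PyMT TANs against WT BM neutrophils, and 25 higher and 3 lower in PyMT-Cxcr2-/- TANs. Among all genes, 30.1% were called higher and 23.2% lower in PyMT TANs, and 34.4% and 25.1% in PyMT-Cxcr2-/- TANs. The median log2 fold change of the targets was 1.78 and 1.33, against 0.09 for all genes. Mx1 and Mx2, antiviral GTPases, rose by 5.81 and 5.81 in PyMT TANs and by 5.92 and 5.54 in PyMT-Cxcr2-/- TANs, from levels of 0.106 and 0.0910 CPM. Ifi44 had 2 counts over the 4 BM libraries, and its pooled level was 144.8-fold that of the marrow in PyMT TANs (95% exact interval of counting, 39.8 to 1200) and 125.7-fold in PyMT-Cxcr2-/- TANs (34.5 to 1042). Cmpk2, a nucleotide kinase of mitochondria, fell by 1.24 and 1.86 and Dhx58, a relative of viral RNA sensors, by 1.19 and 0.96, while Ifit1bl1, the remaining lower target in PyMT-Cxcr2-/- TANs, was at -1.09 and had ranges that overlapped. Dhx58 overlaps a gene on the opposite strand. Against these targets, Ifitm1 at 2.44 and 2.77 lay above the median of the list and Ifitm3 and Ifitm6 lay below 0.

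In PyMT-Cxcr2-/- TANs against PyMT TANs, where Ifitm6 was higher, 0 of 34 targets were called higher by edgeR, with 0 at an unadjusted p under 0.05 and 0 in DESeq2, and 5 were called lower, with 15 at an unadjusted p under 0.05 and 9 in DESeq2. Calls over all genes were 1.38% higher and 0.596% lower. The median of the list was -0.29, against -0.07 for all genes. Rsad2, the antiviral enzyme viperin, was at 27.0 CPM against 73.0 in PyMT TANs (-1.47, SE 0.18, edgeR adjusted p = 0.00737), and was called in 18 of 18 settings. Ifit1, which binds viral RNA, was at 6.60 against 22.1 CPM (-1.78, SE 0.30, edgeR adjusted p = 0.0167, 16 of 18 settings), and Ifit3b at 1.19 against 4.93 CPM (-2.09, SE 0.44, edgeR adjusted p = 0.0354, 8 of 18 settings). Oasl1 (-1.25) and Ifi35 (-0.88), which were named after their values were seen to complete the count of 5, each overlap a gene on the opposite strand. The count of lower targets ranged from 1 to 5 when a mouse was left out, with 1 without PyMT TAN replicate 2. A block for the replicate number, which did not pair the mice, left 1. The 4 Ifitm genes lay between 0.26 and 1.93 in the same comparison.

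**Figure D5:**
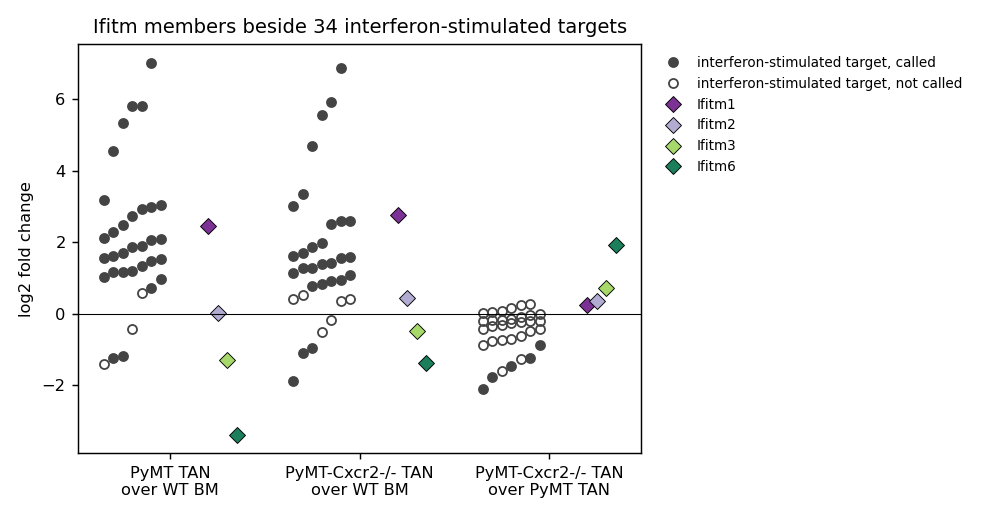
Log2 fold change (y axis) of 34 interferon-stimulated targets (grey circles, filled where the change was at least 1.5-fold at an adjusted p under 0.05) and of the 4 Ifitm genes (diamonds) in the 3 comparisons (x axis). Against WT BM neutrophils 29 and 25 targets were called higher and Ifitm6 lies at -3.38 and -1.38, whereas between the TAN groups 5 targets were called lower and Ifitm6 lies at 1.93.

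Of 12 genes whose products modify or bind Ifitm proteins, 2 were called higher and 4 lower in PyMT TANs against WT BM neutrophils, and 1 higher and 5 lower in PyMT-Cxcr2-/- TANs. Beside this, 53.3% and 59.5% of all genes tested were called in these comparisons, so no particular change of the list is read from the counts. Of the 12, the correction for GC content and length gave 1 higher and 7 lower in PyMT TANs, and library totals 2 higher in PyMT-Cxcr2-/- TANs. Zmpste24, a metalloprotease that works with Ifitm proteins against viruses, fell from 169.1 ± 23.7 CPM to 26.6 and 31.1 CPM (log2 fold change -2.59, SE 0.19, edgeR adjusted p = 1.0e-06, and -2.33, SE 0.21, edgeR adjusted p = 8.4e-07), and it overlaps Gm26186 on the same strand, so its count is uncertain. Zdhhc20, which attaches palmitate to Ifitm3, fell by 1.27 and 0.96. Setd7, which methylates Ifitm3, fell by 1.31 and 0.76, and it overlaps a gene on the opposite strand. Nedd4, which ubiquitinates Ifitm3, fell by 1.23 in PyMT-Cxcr2-/- TANs and was at -1.19 in PyMT TANs (SE 0.59, edgeR adjusted p = 0.106). Fyn, the kinase that phosphorylates Ifitm3, rose by 2.82 and 2.90, from 1.23 CPM. Between the TAN groups edgeR called 0 of the 12, with 1 higher and 1 lower at an unadjusted p under 0.05, and DESeq2 called 0 and gave no adjusted p for 1.

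Of 10 other factors that restrict viruses, 9 were matched and tested, and in each TAN group 4 were called higher and 1 lower than in WT BM neutrophils. Over all genes, 53.3% were called in PyMT TANs and 59.5% in PyMT-Cxcr2-/- TANs, so no particular change of the list is read from the counts. Library totals gave 7 higher in PyMT TANs and 0 lower in PyMT-Cxcr2-/- TANs, and the correction for GC content and length 2 and 3 lower. Bst2, which tethers virus particles, rose by 3.52 and 3.01 on the log2 scale, and Ncoa7 by 2.52 and 2.35, although it overlaps Hint3 on the same strand. Ch25h, which makes an antiviral oxysterol, had 2 counts over the BM libraries. Its pooled level was 251.3-fold that of the marrow in PyMT TANs (95% exact interval of counting, 69.3 to 2080) and 247.0-fold in PyMT-Cxcr2-/- TANs (68.1 to 2044). Such an interval leaves out the spread between mice. Samhd1, which degrades nucleotides needed by viruses, was the lower gene, with a fall of 1.38 and 0.66, the latter called in 15 of 18 settings. Between the TAN groups Samhd1 was the gene called, at 695.3 against 433.1 CPM and thus higher in PyMT-Cxcr2-/- TANs (0.65, SE 0.15, edgeR adjusted p = 0.0484), in 6 of 18 settings. Shfl was not matched.

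The genes whose centred log2 CPM over the 12 libraries lay closest to that of each member, among 16324 genes, were found by the root mean square difference. They were Tnfrsf1b, a receptor for TNF (0.18), Nfkb2 (0.22) and Il13ra1 (0.22) for Ifitm1, against a spread of 1.21 for Ifitm1 itself. For Ifitm6 they were Rab23, a small GTPase (0.27), the kinase Lrrk2 (0.27) and Lin28a (0.29), against a spread of 1.45. For Ifitm3 they were among others Fcgr4, a receptor for IgG (0.15), and Smpdl3a (0.16), against 0.61, and for Ifitm2 Gm6969 (0.13), Dap (0.14) and Atp6v0d1 (0.15), against 0.26. Lrrk2 was at 1432 CPM in WT BM neutrophils, 389.5 in PyMT-Cxcr2-/- TANs and 101.8 in PyMT TANs. Ranked by Pearson correlation in place of the difference, 2 of 3 genes were named again for Ifitm2 and for Ifitm3, and 0 of 3 for Ifitm1 and for Ifitm6.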

How the data were processed

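Neutrophils of 3 groups of 4 mice were profiled by RNA-seq, 1 library per mouse. The authors removed ribosomal RNA, sequenced directional libraries, aligned reads to mm10 with STAR and tallied them with HTSeq, and the deposited values are raw counts per gene, without normalization. The submitters' processing notes also name FastQC. The annotation release and strand setting of the counting are not given in the sources used here. Of 55335 identifiers, 55154 were matched to GENCODE M21. HTSeq's classes that name no gene were left out, of which reads on no feature were 32.0% to 52.5% of a library. Replicates of a group differed by more than sampling noise, with chi-square values of 22.6 to 134.4 per degree of freedom, so none was counted as a repeat. Replicates are separate mice, and no batch is labelled.

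CPM per mouse used TMM factors over the 12 libraries, and CPM per kb the exonic length. The 3 comparisons were fitted on their 2 groups with edgeR 4.0.16 in R 4.3.3 (filterByExpr, TMM, robust quasi-likelihood test), with calls at a change of at least 1.5-fold and a Benjamini-Hochberg adjusted p under 0.05 over all genes tested, the thresholds that the study's methods give for DESeq2. All adjusted p-values come from this test. The SE is the log2 fold change over the square root of F. Alternatives were RLE factors, library totals, other count filters, DESeq2 1.42.0, 12 libraries in one fit, the replicate number as a block, a correction for GC content and length, a log2 fold change of 1.5, and each mouse left out. In simulated counts, changes were given only to genes with higher counts. Of 200 genes changed by 3 on the log2 scale, edgeR recovered 185 for PyMT TANs against WT BM neutrophils. It recovered 199 for PyMT-Cxcr2-/- TANs against WT BM neutrophils and 181 between the TAN groups. Recovery of genes with low counts was not measured.

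The 4 members and the gene lists were chosen with earlier results of these data known. Named outside the members are the other Ifitm genes, in each list and comparison up to 3 called genes with the largest rise and up to 3 with the largest fall among those without overlap between groups, the called neighbours within 200 kb, and for each member the 3 genes of closest pattern. Stated exceptions and the marker genes were named after their values were seen. Some genes that this rule names are not reported here.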

Additional observations from a re-analysis of the deposited data

Results flagged for a closer look

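Of 36 groups of 4 libraries looked at, 6 had a highest library whose gap to the next one was past Dixon's 95% critical value. Chance would flag about 1 in 20 independent groups of continuous values. These groups share libraries and genes, and Ifitm7 is mostly at 0, so no excess is read from the 6. In PyMT TANs, Ifitm1 was at 1266 CPM in replicate 1, against 794.3 to 858.1 CPM in the other 3 mice, and the summed level of the 4 Ifitm genes, which Ifitm1 leads, was 1603 CPM there, against 1078 to 1135 CPM. In PyMT-Cxcr2-/- TANs, replicate 4 held the highest Ifitm6, at 613.7 CPM against 310.8 to 350.1 CPM, and the highest Ifitm3, at 204.3 CPM against 141.7 to 149.9 CPM. In WT BM neutrophils, the ratio of Ifitm6 to Ifitm3 was 3.67 in replicate 3 and 3.37 to 3.42 in the others. Ifitm7 was at 0.0822 CPM in PyMT TAN replicate 4, which is 4 counts, and at 0 in the others. Without replicate 4 of the PyMT-Cxcr2-/- TANs the log2 fold change of Ifitm6 against PyMT TANs was 1.66, against 1.93 with it.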

How the results depend on the processing

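No result of the Ifitm genes changed direction past a threshold, and of the values recomputed with every mouse kept 593 stayed within the spread between mice or within 1.5 times the count, and 89 did not. Against WT BM neutrophils, scaling by library totals gave PyMT TANs log2 fold changes of 2.89 for Ifitm1, 0.46 for Ifitm2, -0.84 for Ifitm3 and -2.94 for Ifitm6. The correction for GC content and length gave 0.40, -0.81 and -2.93 for the last 3 genes, and with the replicate block 0.36, -0.94 and -3.06. Between the TAN groups Ifitm2 was at 0.18 with library totals, 0.027 with the correction and 0.10 with the block and the correction, and Ifitm3 at 0.33 with the correction. The direction of Ifitm2 in PyMT TANs against the marrow was not stable, with -0.13 to 0.08 when a mouse was left out.

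Counts over all genes moved more. Lower genes in PyMT TANs against WT BM neutrophils were 2488 with library totals and 1872 at a log2 fold change of 1.5, against 3988. Lower genes in PyMT-Cxcr2-/- TANs against the marrow were 7314 with the correction, 7295 with the block added and 1657 at a log2 fold change of 1.5, against 4444. Between the TAN groups, 255 higher and 110 lower genes became 693 and 294 with DESeq2 and 579 and 307 with 12 libraries in one fit. They became 51 and 40 with the correction, 10 and 19 with the block and the correction, and 54 and 22 at a log2 fold change of 1.5. Higher genes were 471 without a count filter and lower genes 391 with library totals. Lower interferon targets there, 5, were 8 with library totals, 9 with DESeq2, 9 with 12 libraries in one fit, 3 with the correction and 2 with the block and the correction. With a mouse left out, higher genes ranged from 10 to 427, lower genes from 13 to 100 and lower interferon targets from 1 to 5, and the lowest of each, 10, 13 and 1, came without PyMT TAN replicate 2. The cause was not tested.

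Replicate numbers did not pair the mice, with correlations of -0.22 to 0.10 between libraries of the same number (mean -0.041) and a mean of 0.014 for other numbers. The replicate block left 4 higher genes, 9 lower genes and 1 lower interferon target between the TAN groups. On simulated counts, 27.0% of genes changed by 1 on the log2 scale were recovered between the TAN groups, so changes of this size were often missed. The changed genes were ones with higher counts, so this share does not cover genes with low counts.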
